A study of Gossypium hirsutum with 6 samples.

Results

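In roots of upland cotton (Gossypium hirsutum), 35 annotated genes stood at 2 FPKM or more in every control library and under 1 FPKM in every library from roots kept with PS-COOH. They were chosen by these values themselves, among 75376 identifiers that start with Gohir., out of 81166 identifiers in all. FPKM counts the sequenced fragments of a gene relative to transcript length and library size. Identifiers of a distal stretch of chromosome D05 were left out, as were loci called newGene. The choice used all 6 libraries, so the levels of these genes and their differences between the groups are descriptions, and no test of them is given.

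The PS-COOH group held 3 libraries from roots cultured with 300 mg/l of PS-COOH, and the control group (CK) held 3 libraries from roots cultured with 0 mg/l, both for 9 days. PS-COOH commonly stands for polystyrene that carries carboxyl groups on its surface. No genotype, cultivar or plant age is given in the labels. They also leave unsaid whether replicate libraries derive from different plants or cultures. The p-values below therefore reflect variation among the sequenced libraries, part of which may be technical. The identifiers carry no gene names, so the root label could not be set against root marker genes, and no function is assigned to any gene here.

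Upland cotton is an allotetraploid that carries an A and a D subgenome, so most genes exist as a pair of related copies whose reads can resemble each other. Carboxylated polystyrene particles carry a negative surface charge at neutral pH, and small plastic particles are known to adhere to plant roots. In a library made from a whole root, the level of a transcript averages over all its cells. Fewer cells of a type and less RNA per cell cannot be told apart.

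The libraries were alike within a group. Values of log2(FPKM + 1) correlated at 0.984 to 0.988 across genes within a group and at 0.947 to 0.958 between groups (Pearson's r, genes are not independent replicates). Relative depth, read from the smallest values of the table, was 1.05, 1.104 and 1.05 in the PS-COOH libraries and 1, 0.998 and 0.975 in the CK libraries. Absolute depth is unknown, so no counting interval is given.

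The 35 genes were mostly of modest level in control roots, and most kept a trace of signal with PS-COOH. Their mean levels per gene spanned 0 to 0.951 FPKM in the PS-COOH libraries, with a median of 0.524, and 2.20 to 24.4 FPKM in the CK libraries, with a median of 3.40. Summed over the 35 genes, the PS-COOH libraries held 17.6, 18.6 and 17.7 FPKM, against 166, 151 and 159 FPKM in the CK libraries. The ratio of these means was 8.84, with CK the higher. The sum was a small part of the transcriptome, 0.00298% of all FPKM in the PS-COOH libraries and 0.0282% in the CK libraries.

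Complete loss of signal was rare among them. Of the 105 PS-COOH values (35 genes in 3 libraries), 5 were listed at 0 and 10 were under 0.1 FPKM, while 55 were at 0.5 FPKM or more. A value of 0 was listed in all 3 PS-COOH libraries for 1 gene, in 1 of the 3 for 2 genes, and in none for the other 32. The description of these genes as switched off therefore holds closely for a few and loosely for the rest.

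**Figure D1:**
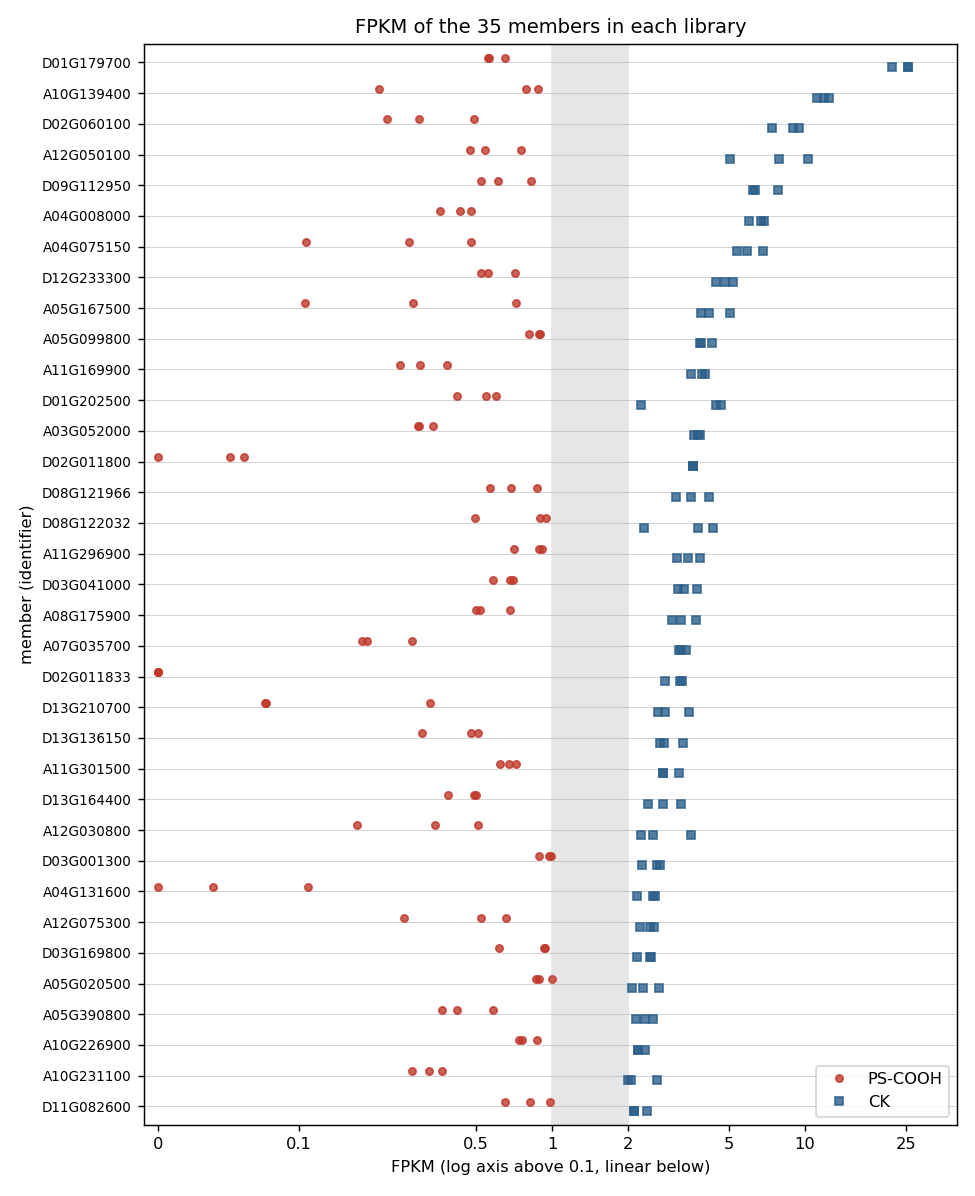
FPKM of each of the 35 genes in each library, on an axis that is logarithmic above 0.1 and linear below it; circles are the 3 PS-COOH libraries and squares the 3 CK libraries, with genes ordered by mean CK level. The empty grey band between 1 and 2 FPKM is set by the rule; the distance from it varies, from Gohir.D02G011833.v2.1, at 0 in every PS-COOH library, to Gohir.A05G020500.v2.1, at 0.868 to 0.997.

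The gene with the highest control level was Gohir.D01G179700.v2.1, on D01. It had 0.561, 0.563 and 0.653 FPKM in the PS-COOH libraries, against 25.6, 22.04 and 25.5 FPKM in the CK libraries. The libraries of each group lay close together, and the means of 0.592 ± 0.0523 and 24.4 ± 2.02 FPKM (PS-COOH and CK, SD, n = 3 each) differed 41.1-fold. This gene alone made up 15.3% of the summed control level of the 35, and the 3 highest together 28.2%.

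The second, Gohir.A10G139400.v2.1 on A10, had 0.881, 0.207 and 0.788 FPKM with PS-COOH, against 11.9, 11.1 and 12.4 FPKM in CK. Its CK libraries were even, while PS-COOH replicate 2 lay well below the other two. The third, Gohir.D02G060100.v2.1 on D02, had 0.224, 0.491 and 0.299 FPKM with PS-COOH, against 9.42, 7.43 and 8.98 FPKM in CK. Gohir.A12G050100.v2.1, on A12, had 0.757, 0.542 and 0.473 FPKM with PS-COOH, against 10.3, 7.88 and 5.03 FPKM in CK. Here the CK libraries themselves lay apart, with replicate 3 the lowest.

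The next 4 by control level kept between 0.107 and 0.827 FPKM in single PS-COOH libraries. Gohir.D09G112950.v2.1 had 0.526, 0.613 and 0.827 FPKM with PS-COOH, against 6.34, 6.21 and 7.84 FPKM in CK. Gohir.A04G008000.v2.1 had 0.433, 0.479 and 0.361 FPKM with PS-COOH, against 6.72, 5.99 and 6.87 FPKM in CK. The PS-COOH libraries of Gohir.A04G008000.v2.1 lay within a narrow range, while those of Gohir.D09G112950.v2.1 varied more in proportion. Gohir.A04G075150.v2.1, also on A04, had 0.477, 0.272 and 0.107 FPKM with PS-COOH, against 6.84, 5.90 and 5.39 FPKM in CK, so its PS-COOH libraries spread more widely in proportion. Gohir.D12G233300.v2.1 had 0.526, 0.560 and 0.714 FPKM with PS-COOH, against 5.19, 4.83 and 4.46 FPKM in CK. Its 8.05-fold ratio of means was the lowest among these 8.

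The 3 genes listed at 0 in a PS-COOH library had control means of 2.41 to 3.62 FPKM. The median control mean was 2.51 FPKM in genes under 5-fold and 6.04 FPKM in genes at 20-fold or more. The ratio has the control mean as its numerator, and the rule keeps PS-COOH values under 1 FPKM. Higher control means at larger ratios are thus partly built in, and nothing is read from them. Gohir.D02G011833.v2.1, on D02, had no signal listed in any of the 3 PS-COOH libraries, against 3.22, 2.79 and 3.27 FPKM in CK. No ratio is given for it, because a value of 0 in this table has no known depth behind it. Gohir.D02G011800.v2.1, the identifier just before it, had 0.0611, 0 and 0.0509 FPKM with PS-COOH, against 3.62, 3.61 and 3.62 FPKM in CK. Its ratio of means, 96.9, rests on PS-COOH values near 0. Gohir.A04G131600.v2.1, on A04, had 0.109, 0 and 0.0391 FPKM with PS-COOH, against 2.17, 2.55 and 2.51 FPKM in CK, a 48.8-fold ratio. It is given because it was the other gene with a value of 0 and was singled out after its values had been seen.

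Ordered by the ratio of the means, 5 of the 34 genes with a ratio lay at 20-fold or more. These were Gohir.D01G179700.v2.1, Gohir.D02G060100.v2.1, Gohir.A04G075150.v2.1, Gohir.D02G011800.v2.1 and Gohir.A04G131600.v2.1. The 9 genes between 10-fold and 20-fold had means of 0.161 to 0.655 FPKM with PS-COOH and 2.96 to 11.8 FPKM in CK. The 11 genes between 5-fold and 10-fold had means of 0.325 to 0.709 FPKM with PS-COOH and 2.22 to 4.83 FPKM in CK. The remaining 9 were under 5-fold, with 0.676 to 0.951 FPKM with PS-COOH and 2.20 to 4.01 FPKM in CK. The median ratio of the 34 was 7.02, and the lowest CK library was at least 5 times the highest PS-COOH library in 17 of them.

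The remaining signal did not follow the control level in an evident way. Across the 35 genes the mean PS-COOH and mean CK levels had a Spearman correlation of -0.13, a description only, since the genes share libraries and the rule bounds both values. The lowest PS-COOH value fell in replicates 1, 2 and 3 for 15, 7 and 15 genes, counting the gene at 0 in all of them for each. The highest fell there for 11, 11 and 12 genes.

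The edges of the set are set by the thresholds. Just inside the CK threshold lay Gohir.A10G231100.v2.1, with 0.327, 0.369 and 0.280 FPKM with PS-COOH and 2.04, 2.005 and 2.60 FPKM in CK. Just outside it lay Gohir.A06G116602.v2.1, with 0.952, 0.669 and 0.897 FPKM with PS-COOH and 1.97, 2.34 and 2.11 FPKM in CK. Just inside the PS-COOH threshold lay Gohir.A05G020500.v2.1, with 0.997, 0.892 and 0.868 FPKM with PS-COOH and 2.29, 2.65 and 2.08 FPKM in CK, a ratio of 2.55. Just outside lay Gohir.D06G079250.v2.1, with 0.793, 1.01 and 0.948 FPKM with PS-COOH and 3.70, 2.50 and 3.72 FPKM in CK. A further 27 genes missed the rule by 1 PS-COOH library, and 25 by 1 CK library.

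Among genes expressed in control roots, loss to this degree was uncommon. Of 31985 annotated genes at 2 FPKM or more in each CK library, the 35 made up 0.109%, and a further 238 had a CK mean at least 2 times the PS-COOH mean while keeping 1 FPKM or more in each PS-COOH library. Those 238 had median levels of 2.89 FPKM with PS-COOH and 7.20 FPKM in CK. The rule with the groups exchanged was met by 88 genes, under 1 FPKM in each CK library and 2 FPKM or more in each PS-COOH library. No share is given for these 88, and their number was not tested against the 35. Summed FPKM of all identifiers was also higher in the PS-COOH libraries (596571 to 607555) than in the CK libraries (559567 to 568456).

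The share that met the rule was smaller at higher control levels, where a gene must lose more to fall under 1 FPKM. It was 0.446% of the 3141 genes with a CK mean of 2 to 3 FPKM, 0.190% of the 7385 at 3 to 5, 0.0516% of the 9689 at 5 to 10 and 0.0170% of the 11770 at 10 FPKM or more. The gene at 0 in all PS-COOH libraries has no ratio and is left out here. A ratio of means of 10 or more was found in 16 of the expressed genes, and 14 of these were among the 35. For a gene with a CK mean under 10 FPKM, such a ratio already puts its PS-COOH mean under 1 FPKM. This overlap is therefore largely set by the rule, and nothing is read from it. The other 2 of the 16, looked up after their values were seen, each had a single PS-COOH library above 1 FPKM. Gohir.A12G028000.v2.1 had 0.601, 0.964 and 1.24 FPKM with PS-COOH against 9.89, 9.47 and 11.8 FPKM in CK. Gohir.A13G166625.v2.1 had 0.665, 0.218 and 1.11 FPKM with PS-COOH against 11.3, 9.78 and 6.06 FPKM in CK.

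**Figure D2:**
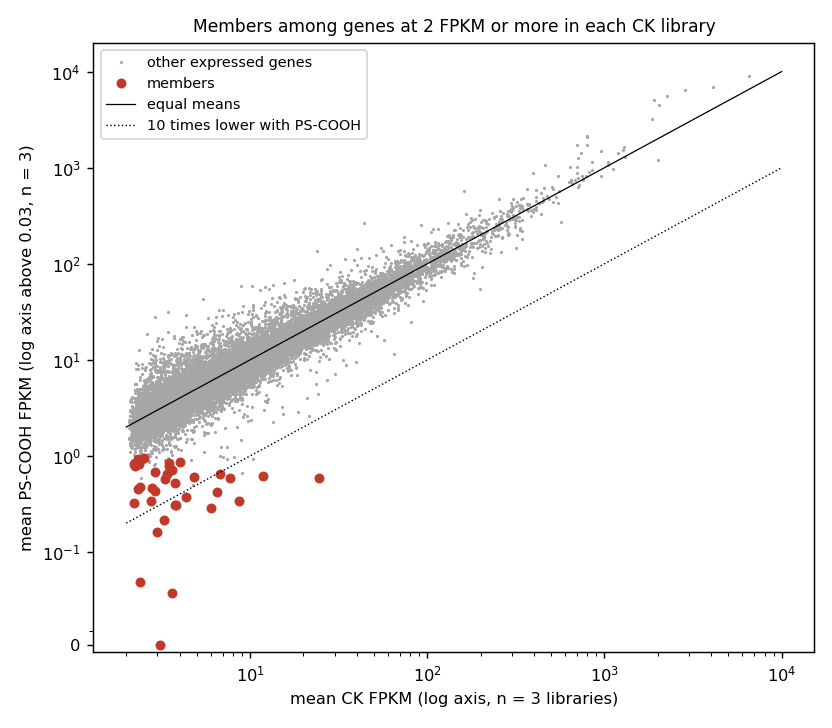
Mean FPKM over the 3 PS-COOH libraries against mean FPKM over the 3 CK libraries for genes at 2 FPKM or more in each CK library; the vertical axis is logarithmic above 0.03 and linear below, large points are the 35 genes, and lines mark equal means and a 10-fold lower PS-COOH mean. Of the 16 genes with a ratio of 10 or more, 14 are among the 35, an overlap largely set by the rule. The highest control level among them is 24.4 FPKM.

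The same contrast was fitted over all 45258 genes with at least 1 FPKM in at least 3 libraries (limma on log2(FPKM + 1), adjusted p under 0.05). All 35 genes entered this fit and all 35 passed as lower with PS-COOH, where 15.1% of all tested genes did. The rule chose them on these values, so nothing is read from that count. Likewise, PS-COOH lay below CK without overlap in 23.4% of all tested genes, and in the 35 by construction. On the log2(FPKM + 1) scale, which understates changes of low genes, their differences ran from -3.99 to -0.80 with a median of -1.48, beside a median of -0.02 over all tested genes.

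Levels of most of the 35 were steady between the CK libraries. The coefficient of variation over the 3 CK libraries had a median of 8.73%. It had a median of 8.40% over the 27758 expressed genes in the same range of control means. Levels within that range were not matched: median CK means were 3.40 FPKM in the 35 and 7.27 FPKM in all expressed genes. The coefficient exceeded 20% in 4 of the 35, at 35.2% in Gohir.D01G202500.v2.1, 33.8% in Gohir.A12G050100.v2.1, 30.3% in Gohir.D08G122032.v2.1 and 24.5% in Gohir.A12G030800.v2.1. Gohir.D01G202500.v2.1 had 0.423, 0.549 and 0.601 FPKM with PS-COOH, against 4.67, 2.26 and 4.46 FPKM in CK. At the other end, Gohir.D02G011800.v2.1 varied by 0.206% between its CK libraries. CK replicate 1 was the lowest CK library in 7 genes, replicate 2 in 15 and replicate 3 in 13, while in all expressed genes these shares were 36.5%, 30.9% and 32.6%.

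The 35 genes were spread over both subgenomes. They comprised 19 with an A code and 16 with a D code, so 54.3% were of the A subgenome, beside 49.4% of the 31915 expressed genes with a chromosome code. They lay on 16 of the 26 chromosome codes. A05 held 4, and A04, A10, A11, A12, D02, D03 and D13 held 3 each. Of the 35 identifiers, 6 had a number that does not end in 00 (17.1%). This share was 8.77% in the expressed genes, 19.8% in the 237 genes with a chromosome code of that group of 238, and 21.6% of all 74902 identifiers with a chromosome code. These shares were not tested.

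Identifiers were sorted by their number within a chromosome code, an order assumed to reflect position, to ask whether genes beside the 35 changed too. Values of such neighbours had no part in the rule. The nearest tested identifier on each side gave 66 neighbours, after leaving out neighbours that were themselves among the 35. Of these, 11 rose, 14 fell and 41 did not pass (limma, Benjamini-Hochberg adjusted p under 0.05), so 37.9% were called, beside 30.8% of all tested genes. Rises made up 16.7% and falls 21.2% of the neighbours, where 15.7% of all tested genes rose and 15.1% fell. Their median difference was -0.03 on the log2(FPKM + 1) scale, beside -0.02 for all tested genes. Of the 66, 3 fell by at least 1 on that scale (4.55%), where 0.572% of all tested genes did, and 2 rose by as much (3.03%), where 1.86% of all did. With the 5 nearest on each side, 58 of 330 rose and 48 fell, and 10 rose (3.03%) and 5 fell (1.52%) by at least 1. Whether these shares differ from those of all tested genes was not tested.

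Taken as 1 value per library, the summed level of the 66 neighbours was 643, 641 and 639 FPKM in the PS-COOH libraries, against 676, 663 and 660 FPKM in the CK libraries. The groups did not overlap, and the PS-COOH mean was 0.962 of the CK mean (exact two-sided permutation test, p = 0.1, the smallest that 3 against 3 allows). That difference rests on 1 gene: without Gohir.A10G139300.v2.1, an alternative chosen after seeing the data, the sums were 632.3, 632.4 and 630.1 FPKM in the PS-COOH libraries, against 635, 624 and 620.1 FPKM in the CK libraries. The groups then overlapped, and the PS-COOH mean was 1.01 of the CK mean (exact two-sided permutation test, p = 0.4). At least 1 neighbour fell beside 11 of the 35 genes and at least 1 rose beside 10. No tested neighbour passed beside 15. Such counts are not given for expressed genes in general, so nothing is read from them. In listed order, 19 of the 70 identifiers directly beside the 35 stayed under 1 FPKM in all 6 libraries (27.1%), beside 34.5% of those next to all expressed genes. The 70 include the 4 genes of the adjacent pairs among the 35, which by the rule could not be counted.

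**Figure D3:**
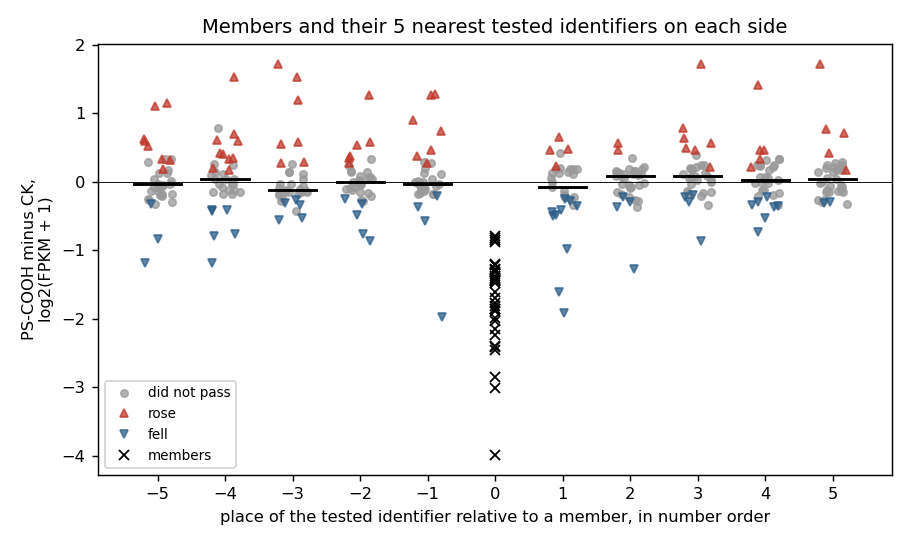
Difference between PS-COOH and CK on the log2(FPKM + 1) scale for the 35 genes (crosses at place 0) and for the 5 nearest tested identifiers on each side in number order; triangles mark genes that rose or fell (limma, adjusted p under 0.05), circles those that did not pass, and bars are medians. The medians at each place lie near 0, and single neighbours reach -1.97 and 1.28 at the places next to the 35.

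Gohir.D01G179700.v2.1, the highest of the 35 in control roots, lay beside identifiers near 0 in both groups. Those just before and just after it, Gohir.D01G179500.v2.1 and Gohir.D01G179800.v2.1, averaged 0 and 0.285 FPKM in the PS-COOH libraries, against 0 and 0.458 FPKM in CK. The nearest tested identifier after it, Gohir.D01G179900.v2.1, averaged 3.40 FPKM with PS-COOH and 3.24 FPKM in CK, a difference of 0.05 that did not pass (limma, adjusted p = 0.75).

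The 3 neighbours with the largest falls lay beside genes on A10 and A12. Gohir.A10G139300.v2.1, directly before Gohir.A10G139400.v2.1, fell to 10.9, 8.29 and 9.07 FPKM with PS-COOH, against 40.8, 38.7 and 39.6 FPKM in CK (log2 difference -1.97, SE 0.084; limma, adjusted p = 1.1e-08). It is the more abundant of the pair in both groups. The identifiers on either side of the pair fell less: Gohir.A10G139200.v2.1 by 0.33 on the log2 scale (adjusted p = 0.0016) and Gohir.A10G139500.v2.1 by 0.42 (adjusted p = 0.010).

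On A12, Gohir.A12G050150.v2.1 follows Gohir.A12G050100.v2.1 directly and fell to 0.782, 1.57 and 0.337 FPKM with PS-COOH, against 5.34, 5.09 and 3.50 FPKM in CK (log2 difference -1.61, SE 0.21; limma, adjusted p = 0.00010). A single PS-COOH library above 1 FPKM kept it outside the rule. CK replicate 3 was the lowest CK library for both. The tested genes on either side, Gohir.A12G050000.v2.1 and Gohir.A12G050200.v2.1, did not pass, with log2 differences of -0.16 and -0.15 (adjusted p = 0.43 and 0.14).

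The third, Gohir.A10G231400.v2.1, is the nearest tested identifier after Gohir.A10G231100.v2.1 and the fourth after it in listed order. It fell to 3.46, 2.77 and 3.55 FPKM with PS-COOH, against 12.4, 16.7 and 16.4 FPKM in CK (log2 difference -1.92, SE 0.12; limma, adjusted p = 1.8e-07). Of the untested identifiers between them, Gohir.A10G231175.v2.1 was the highest, with means of 0.282 FPKM with PS-COOH and 0.869 FPKM in CK.

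A pair of adjacent identifiers on D02, Gohir.D02G011800.v2.1 and Gohir.D02G011833.v2.1, are both among the 35. The other 3 identifiers listed between the nearest tested genes on either side were too low to be tested. Gohir.D02G011640.v2.1 had 0.0750, 0.0262 and 0.0577 FPKM with PS-COOH, against 0.668, 0.908 and 1.05 FPKM in CK. Gohir.D02G011680.v2.1 had 0.512, 0.328 and 0.360 FPKM with PS-COOH, against 0.528, 0.845 and 1.17 FPKM in CK. Gohir.D02G011866.v2.1 had 0.631, 0.468 and 0.654 FPKM with PS-COOH, against 0.880, 0.855 and 1.40 FPKM in CK. In these 3 the PS-COOH libraries lay below the CK libraries without overlap. This held for 7.23% of all identifiers above 0 in a library but too low to be tested. It held for 23.4% of all tested genes, and neither share is matched to the control level of these 3. The flanking tested genes did not pass: Gohir.D02G011600.v2.1 averaged 1.002 FPKM with PS-COOH and 1.05 FPKM in CK (adjusted p = 0.85), and Gohir.D02G011900.v2.1 4.31 and 3.86 FPKM (adjusted p = 0.44).

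The other adjacent pair lay on D08, directly after a gene that rose. Gohir.D08G121966.v2.1 had 0.569, 0.870 and 0.687 FPKM with PS-COOH, against 3.56, 4.19 and 3.08 FPKM in CK. Gohir.D08G122032.v2.1 had 0.949, 0.896 and 0.497 FPKM with PS-COOH, against 4.35, 2.31 and 3.79 FPKM in CK. In CK replicate 2 the first was at its highest and the second at its lowest. Gohir.D08G122100.v2.1, just after the pair, did not pass (log2 difference 0.18, limma, adjusted p = 0.32). Gohir.D08G121900.v2.1, just before the pair, rose to 4.18, 5.83 and 3.85 FPKM with PS-COOH, against 1.06, 1.53 and 1.40 FPKM in CK (log2 difference 1.26, SE 0.15; limma, adjusted p = 3.7e-05). Gohir.D08G121700.v2.1, still earlier in the order, rose by 1.53 (SE 0.12, limma, adjusted p = 1.6e-06). Gohir.D08G121800.v2.1, between these 2, did not pass (limma, adjusted p = 0.38). Such changes also lay near other named genes. Gohir.A04G007700.v2.1, 3 places before Gohir.A04G008000.v2.1, rose by 1.72 (limma, adjusted p = 1.7e-07). Gohir.D01G202700.v2.1, 2 places after Gohir.D01G202500.v2.1, fell by 1.27 (limma, adjusted p = 5.0e-05). These more distant identifiers were picked with their values known.

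Of the 3 neighbours with the largest rises, Gohir.D08G121900.v2.1 was one, and the others lay on A04 and A05. Gohir.A04G131500.v2.1, directly before Gohir.A04G131600.v2.1, rose to 5.89, 4.24 and 5.97 FPKM with PS-COOH, against 1.87, 1.83 and 1.15 FPKM in CK (log2 difference 1.28, SE 0.15; limma, adjusted p = 3.9e-05). Gohir.A04G131700.v2.1, on its other side, averaged 17.4 FPKM with PS-COOH and 15.2 FPKM in CK and did not pass (limma, adjusted p = 0.079, and 0.0412 without CK replicate 1 to 0.261 without CK replicate 2 over its alternatives). Gohir.A05G167300.v2.1, the nearest tested identifier before Gohir.A05G167500.v2.1, rose to 9.83, 11.6 and 10.8 FPKM with PS-COOH, against 4.89, 6.04 and 5.05 FPKM in CK (log2 difference 0.89, SE 0.096; limma, adjusted p = 2.1e-05). How reads that match more than 1 gene or overlapping genes were assigned is not given in the sources used here, so where neighbours are similar in sequence the level of each is uncertain.

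**Figure D4:**
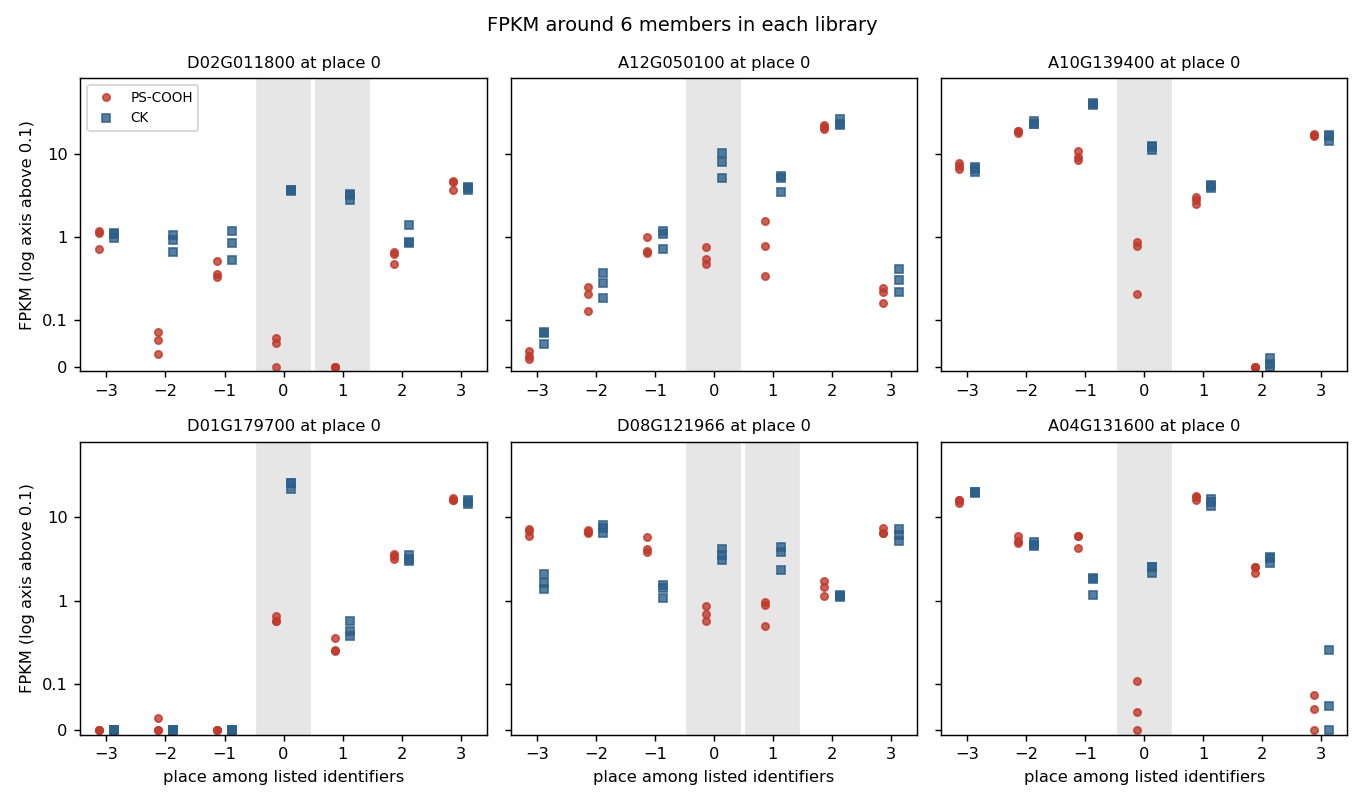
FPKM in each library for 6 of the genes (place 0) and the 3 listed identifiers on each side in number order, on an axis that is logarithmic above 0.1 and linear below; circles are PS-COOH and squares CK libraries, and grey bands mark genes among the 35. PS-COOH lies below CK in the grey bands by the rule, and above CK just before the grey bands on D08 and A04.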

How the data were processed

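RNA-seq of cotton roots (3 PS-COOH and 3 CK libraries, grouped by title) was read as 150-bp pairs, per the labels' protocols. The authors deposited 1 table of FPKM values for 81166 identifiers in 6 columns, all used. The submitters' processing notes name HISAT2 and StringTie, with no roles or versions. Genome build, annotation and filters: not given in the sources used here. The unit adjusts for transcript length and total fragments only. No identifier matched the 99454 genes of a RefSeq table, so no name, sequence or gene list is given.

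The rule was applied to FPKM as deposited. The genes and comparisons were chosen with earlier results of these data known. The limma fit (limma 3.58.1, R 4.3.3) used log2(FPKM + 1), a trend in the prior variance, genes with at least 1 FPKM in at least 3 libraries and Benjamini-Hochberg adjustment; it was checked on simulated data. Coded identifiers were ordered by number. newGene loci carry no chromosome code and have no place in that order. Relative depth is the peak of the ratio between libraries of values under 0.1 FPKM. No 2 libraries shared more than 1 identical value above 0.

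Identifiers are given for the 8 highest genes in CK, the 3 largest ratios among genes above 0 in every PS-COOH library, genes at 0 in all PS-COOH libraries, those nearest the thresholds, adjacent members, the extremes of CK variation, neighbours of these, and the 3 largest changes in each direction among neighbours. Others are said to be chosen later. Alternatives were other thresholds, pseudocounts, filters, scalings, a robust prior, a replicate block, other neighbour distances and leaving out each library.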

Additional observations from a re-analysis of the deposited data

How the results depend on the processing

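The number of genes depends on the thresholds: it was 283 with CK at 1 FPKM or more, 7 with CK at 5 or more, 12 with PS-COOH under 0.5 and 405 with PS-COOH under 2. It was 34 after median-ratio scaling and 37 after quantile normalization, 34 of them shared with the 35 in each case. Without each library in turn it was 40 to 49. Leaving out a library can only add genes to the 35, so that range says nothing of stability. Neighbours that rose and fell numbered 7 and 9 of 32 with a filter of 5 FPKM, since fewer were tested, 18 and 23 of 132 with 2 per side, and 58 and 48 of 330 with 5 per side. Without each library, 9 to 13 of 66 rose and 10 to 13 fell. The labels do not say whether the replicate numbers pair the libraries. Deviations of same-numbered libraries correlated at -0.073, -0.061 and -0.0073, so no shared deviation was seen. With the replicate numbers as a block, 10 neighbours rose and 13 fell. Over all tested genes, 6687 then rose and 6014 fell, against 7117 and 6825 without the block. Under the other fits 4845 to 7270 of the tested genes rose and 4891 to 7260 fell. These counts have different totals, from 22913 genes tested with a filter of 5 FPKM to 70126 without a filter. The 4845 is from the filter of 5 FPKM. The ratio of the neighbours' sums was 0.944 (quantile normalization) to 0.978 (median of single ratios) under the other alternatives, and 1.01, with the direction reversed, without Gohir.A10G139300.v2.1, an alternative chosen after seeing the data. Of 241 refitted differences of the 18 named members, 36 moved by more than the spread between replicates, all at a smaller pseudocount. None of these changed direction, and none of the 9 called among 16 named neighbours lost its call, under the alternatives that included it. Of the neighbours that did not pass, Gohir.D02G011600.v2.1 changed direction without PS-COOH replicate 3, with log2 differences of -0.103 to 0.0709 without each library, and Gohir.A04G131700.v2.1 passed without CK replicate 1 (log2 difference 0.25). Values near 0 FPKM are the least certain, since absolute depth is unknown.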

Other observations

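The FPKM thresholds of the rule were also met by loci outside its scope, whose values were looked up after the fact. Of 1507 newGene loci at 2 FPKM or more in each CK library, 12 were under 1 FPKM in each PS-COOH library (0.796%), beside 0.109% of the annotated genes. Of these 12, 3 had no signal listed in any PS-COOH library and had CK means of 5.19, 4.70 and 3.66 FPKM. Another, with 0.132, 0.0572 and 0.187 FPKM with PS-COOH and 7.79, 6.65 and 6.35 FPKM in CK, had the largest CK mean of the 12. The difference between newGene loci and annotated genes was not tested. They were not matched for control level, with which the share of annotated genes varied.

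In the distal stretch of D05, 4 of 275 identifiers met the thresholds. The 275 were counted at any control level, so this count is not comparable with the shares above. Gohir.D05G373000.v2.1 had 0, 0.218 and 0.105 FPKM with PS-COOH, against 10.9, 10.7 and 8.87 FPKM in CK. Gohir.D05G376600.v2.1 had 0, 0.212 and 0 FPKM with PS-COOH, against 8.14, 4.58 and 7.72 FPKM in CK. Gohir.D05G372900.v2.1 and Gohir.D05G367000.v2.1 averaged 0.0362 and 0.0189 FPKM with PS-COOH and 2.80 and 2.65 FPKM in CK. Each of the 4 was listed at 0 in at least 1 PS-COOH library, as were 3 of the 35 genes elsewhere.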
